A study of Mus musculus with 4 samples.

Results

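The genes described here encode the meiotic chromosome axis and the synaptonemal complex. They are Sycp1, Sycp2, Sycp3, Syce1, Syce2, Tex12, Tex11, Hormad1, Smc1b and Stag3, chosen by name and measured on Affymetrix mouse genome arrays through every probe set that the platform annotation pairs with exactly 1 of these symbols. The choice was made with earlier results of these data known. All 10 genes were found, each with 1 probe set, among 18193 named genes and 45101 probe sets on the array.

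RNA came from mouse embryonic stem (ES) cells, which renew themselves in culture and can form the tissues of the embryo. Each of 4 groups was represented by 1 array: constitutive Ring1B KO cells, their control, conditional Ring1A/B-dKO cells at day 4, and their control. Both controls carry the label wild-type. Per the series' design text the double knockout was made conditional with OHT because constitutive double mutants could not be kept in culture. The labels do not state the strain, the clone, the Cre line, or whether the control of the double KO received OHT. Ring1A and Ring1B, encoded by Ring1 and Rnf2, are the RING-finger subunits of Polycomb repressive complex 1 (PRC1), which places ubiquitin on histone H2A. With 1 array a group there was no replicate check, and no p-value was computed. The number of arrays limits the precision.

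During meiosis each pair of sister chromatids is held along a protein axis built on cohesin complexes with meiosis-specific subunits, among them Smc1b and Stag3. The axes of homologous chromosomes become the lateral elements of the synaptonemal complex, which contain Sycp2 and Sycp3. Transverse filaments of Sycp1 join them across a central element that contains Syce1, Syce2 and Tex12. In mouse ES cells and somatic cells many genes of this kind are kept low by promoter DNA methylation and by a PRC1 variant that contains Pcgf6, L3mbtl2, E2f6 and the E-box-binding pair Mga and Max.

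Promoter sequences are shown because this PRC1 variant is known to reach germline genes through DNA-binding subunits. RefSeq promoter windows (build GRCm38.p6) of 300 bases, from 250 bases before the annotated start site to 50 after it, were found for 9 of the 10 genes. Tex11 had no entry. The windows were searched on both strands for TCCCGC, a core of the E2F6 site, and for CACGTG, an E-box. TCCCGC stood in a window of 7 of the 9 genes, compared with 22.1% of all 27025 genes in the promoter table. CACGTG stood in 6 of the 9, compared with 8.09% of all genes, and 6 of the 9 held both motifs, compared with 2.65%. A match of letters is a description of the window and not a measured binding site. In no window did matches of these motifs overlap each other. Of the windows printed here, those of Sycp1 and Tex12 belong to genes that differed more than 2-fold in both knockout comparisons and hold both motifs. The window of Syce1, which had the largest difference in the Ring1B comparison among genes above the floor in both samples, holds neither. Sycp3 and Stag3 hold both motifs and differed less than 2-fold in both comparisons. Capitals mark the matches of either motif, read on the strand of the gene, where GCGGGA is TCCCGC on the opposite strand.
Sycp1 promoter, chr3:102936051-102936350, minus strand: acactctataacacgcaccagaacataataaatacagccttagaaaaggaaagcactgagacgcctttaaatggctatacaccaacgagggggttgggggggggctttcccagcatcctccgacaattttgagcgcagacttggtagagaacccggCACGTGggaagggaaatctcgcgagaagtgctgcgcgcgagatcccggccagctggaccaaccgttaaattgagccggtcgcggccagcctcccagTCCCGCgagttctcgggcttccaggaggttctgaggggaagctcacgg
Tex12 promoter, chr9:50561219-50561518, minus strand: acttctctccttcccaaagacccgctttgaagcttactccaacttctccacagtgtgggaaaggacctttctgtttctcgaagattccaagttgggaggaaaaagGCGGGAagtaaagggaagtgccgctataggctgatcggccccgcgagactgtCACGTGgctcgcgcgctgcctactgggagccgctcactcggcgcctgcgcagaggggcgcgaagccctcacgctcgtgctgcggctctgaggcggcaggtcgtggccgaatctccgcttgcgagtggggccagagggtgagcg
Syce1 promoter, chr7:140787805-140788104, minus strand: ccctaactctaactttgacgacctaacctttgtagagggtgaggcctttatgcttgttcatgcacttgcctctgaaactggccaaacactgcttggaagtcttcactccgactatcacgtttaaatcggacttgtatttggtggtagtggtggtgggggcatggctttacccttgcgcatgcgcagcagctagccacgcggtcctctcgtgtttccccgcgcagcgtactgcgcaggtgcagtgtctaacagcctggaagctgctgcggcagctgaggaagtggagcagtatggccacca
Sycp3 promoter, chr10:88459337-88459636, plus strand: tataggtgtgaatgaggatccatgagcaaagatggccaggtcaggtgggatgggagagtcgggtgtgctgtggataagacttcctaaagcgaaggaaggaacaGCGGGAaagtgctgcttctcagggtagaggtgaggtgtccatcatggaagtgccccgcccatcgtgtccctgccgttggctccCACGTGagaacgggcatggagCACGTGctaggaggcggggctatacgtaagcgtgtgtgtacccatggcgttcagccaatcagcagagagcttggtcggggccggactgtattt
Stag3 promoter, chr5:138280259-138280558, plus strand: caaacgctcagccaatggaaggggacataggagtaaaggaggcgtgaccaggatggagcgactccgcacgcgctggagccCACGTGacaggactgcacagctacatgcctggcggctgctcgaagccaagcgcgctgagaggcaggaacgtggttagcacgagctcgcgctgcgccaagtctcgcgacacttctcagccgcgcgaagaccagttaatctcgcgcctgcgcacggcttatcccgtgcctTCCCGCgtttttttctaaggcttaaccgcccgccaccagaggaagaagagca

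**Figure D1:**
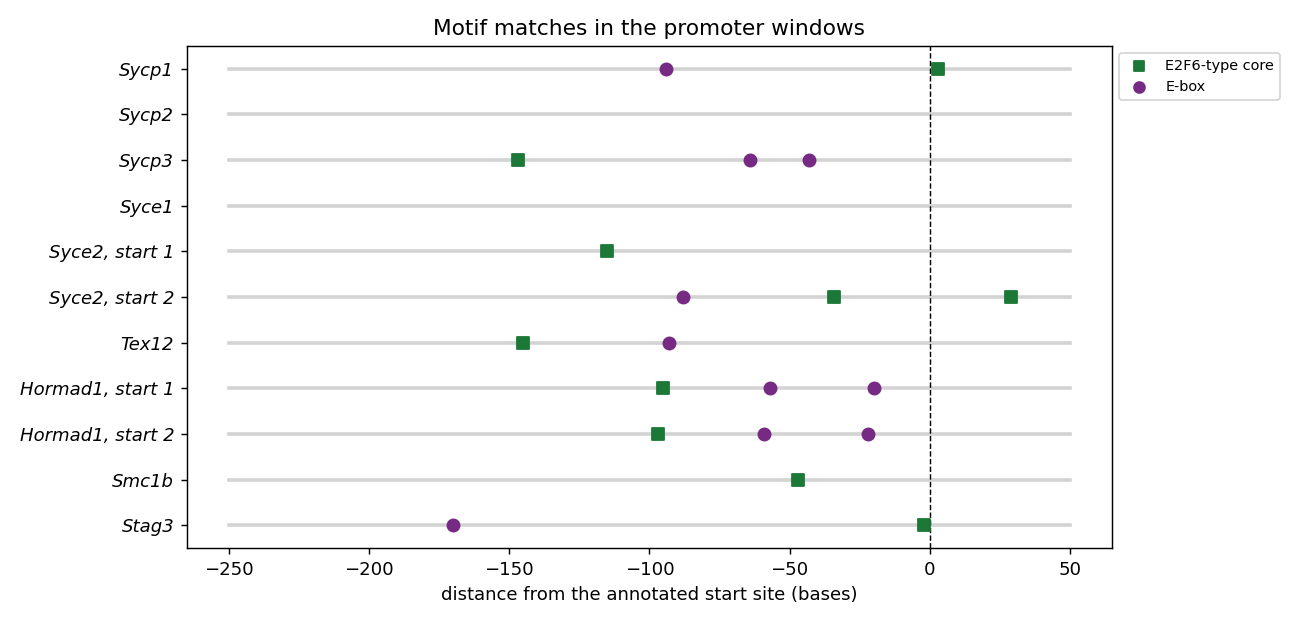
Positions of the E2F6-type core (squares) and the E-box (circles) in each promoter window of the genes with an entry, by distance in bases from the annotated start site, with genes that have several annotated starts on several lines. Matches stand in windows of genes that reached 2-fold in at least 1 knockout comparison (Sycp1, Tex12, Smc1b) and of genes that did not (Sycp3, Syce2, Hormad1, Stag3). The windows of Sycp2 and Syce1 hold none.

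In the windows with an E-box its first base lay between positions -170 and -20 relative to the start site, at -94 in Sycp1, -93 in Tex12 and -170 in Stag3. Sycp3 had E-boxes at -64 and -43, and Hormad1 at -57 and -20 from its first annotated start. The TCCCGC match of Sycp1 began at 3 bases after the start site and that of Stag3 at -2, while those of Sycp3 and Tex12 began at -147 and -145. CG dinucleotides numbered 21 in the Sycp1 window, 26 in Tex12, 14 in Syce1, 10 in Sycp2 and 29 in Smc1b, genes that reached 2-fold in at least 1 knockout comparison. Windows of genes that did not held 15 in Sycp3, 24 in Hormad1, 30 in Stag3, and 19 and 33 from the annotated starts of Syce2. The median over all 32851 windows of the table was 7, so each of these windows held more CG than the median window. Genes that reached 2-fold and genes that did not overlapped both in their motifs and in their CG counts.

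Signals were scaled to a common 2%-trimmed mean of 277 on every array. A floor of 36.6, the 40th percentile of scaled signals, was applied before log2 differences were taken. Before scaling the trimmed means were 500.0 for both samples of the Ring1B pair, 147 for the double KO-labelled sample and 160 for its control, with scaling factors between 0.554 and 1.89. Between 11185 and 11896 named genes lay above the floor on an array. The targeted genes did not check the labels. At its brightest probe set Rnf2 read 2775 in the sample labelled Ring1B KO and 2580 in its control, and 1986 in the double KO-labelled sample and 2182 in its control. Ring1 read 164 in the Ring1B KO-labelled sample and 146 in its control, and 55.6 in the double KO-labelled sample and 44.7 in its control. Where these probe sets lie relative to the deleted parts is not known here, so samples are called by their labels throughout. Each direction given for the double KO pair rests on its labels. Exchanged labels would turn all of these directions, and whether the labels are right was not tested. All 10 ES cell markers examined, among them Pou5f1 and Nanog, were above the floor on every array.

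Of the 10 meiotic genes, 7 were above the floor on all 4 arrays, Sycp1 on 3, and Sycp2 and Tex12 on 2 each. In a bulk sample, fewer cells that express a gene and less RNA per cell cannot be told apart. Syce1, Tex11, Tex12, Sycp2 and Sycp1 had higher signals in the sample labelled Ring1B KO than in its control and lower signals in the double KO-labelled sample than in its control. Smc1b was under 2-fold apart in the Ring1B comparison and lower in the double KO-labelled sample. Sycp3, Syce2, Hormad1 and Stag3 stayed under 2-fold apart in both comparisons.

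**Figure D2:**
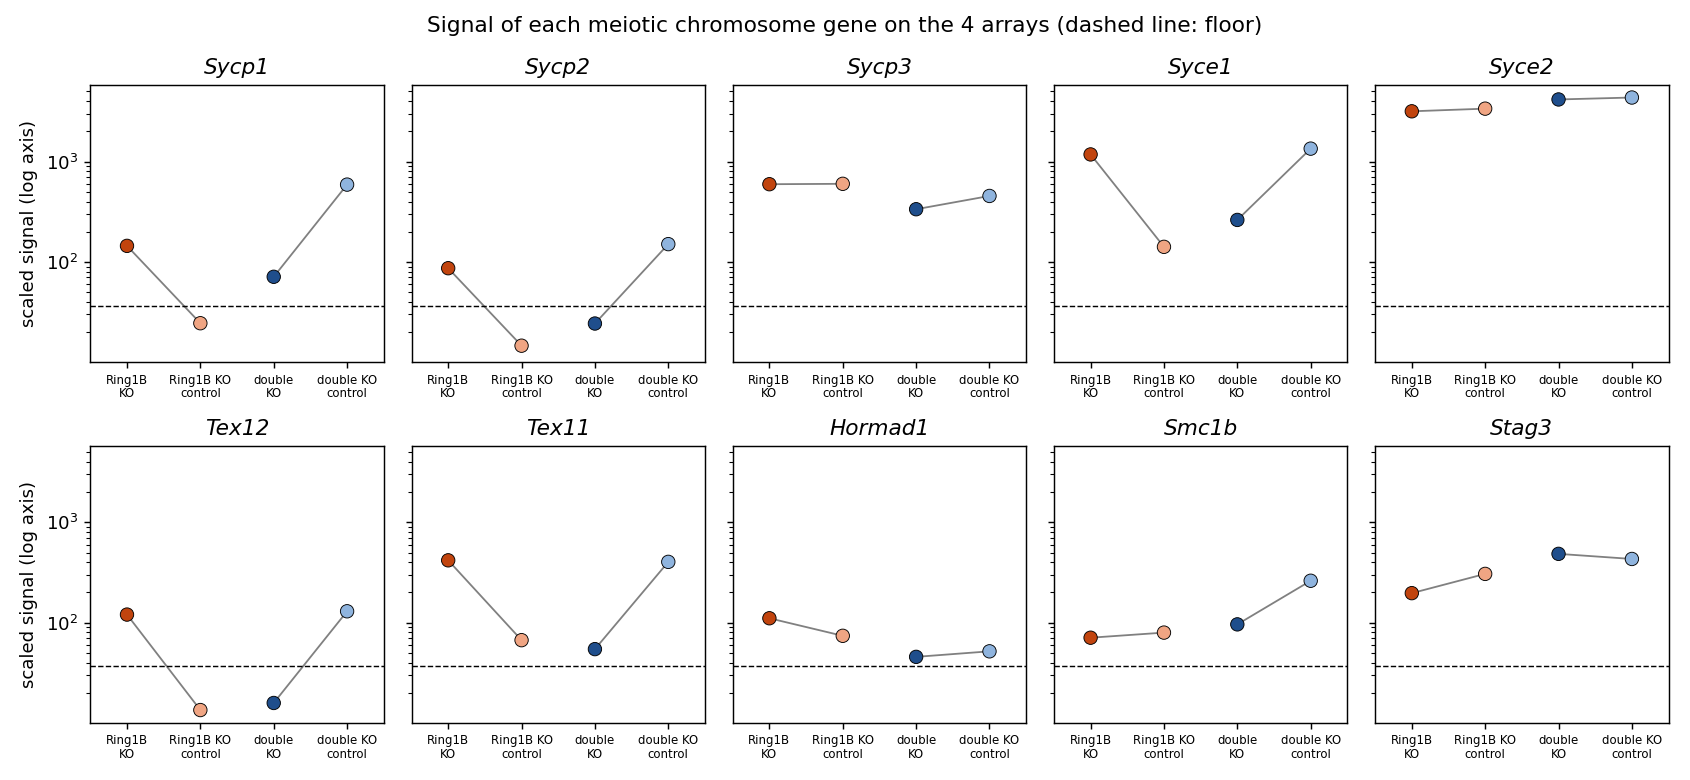
Scaled signal (log axis) of each gene in the samples labelled Ring1B KO, Ring1B KO control, double KO and double KO control, 1 array each, with grey lines joining the arrays of a pair and a dashed line at the floor of 36.6. Sycp1, Sycp2, Syce1, Tex12 and Tex11 are higher in the samples labelled Ring1B KO and double KO control than on the other arrays, and Syce2 is close to level. For Sycp1 these higher signals are themselves 4.08-fold apart.

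Sycp1, the transverse filament protein of the synaptonemal complex (probe set 1427291_at), read 145 in the sample labelled Ring1B KO and 24.5, under the floor, in its control. It read 71.1 in the double KO-labelled sample and 589 in its control. The sample labelled double KO control was thus the brightest of the 4. Sycp1 was at least 3.95-fold higher in the Ring1B comparison, a bound set by the floor, and 8.29-fold lower in the double KO comparison. Among all probe sets of an array, a ranking that does not depend on scaling, it stood at percentile 67.5 in the sample labelled Ring1B KO and 37.0 in its control, and at 60.6 in the double KO-labelled sample and 84.9 in its control.

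Of the lateral element genes, Sycp2 (1444122_at) followed the pattern of Sycp1 and Sycp3 (1449534_at) did not. Sycp2 read 86.6 in the sample labelled Ring1B KO and 14.6 in its control, and 24.3 in the double KO-labelled sample and 150.4 in its control. Its dim side lay under the floor in both pairs, so it was at least 2.37-fold higher in the Ring1B comparison and at least 4.11-fold lower in the double KO comparison. Sycp3 read 595 in the sample labelled Ring1B KO and 600.3 in its control, a log2 difference of -0.0130. In the double KO-labelled sample it read 335 and in its control 454, a log2 difference of -0.44. Sycp3 was well above the floor on every array, at percentile 85.5 in the Ring1B KO-labelled sample and 85.6 in its control, and at 78.9 in the double KO-labelled sample and 81.9 in its control. The products of Sycp2 and Sycp3 bind each other in the lateral element.

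The central element genes also split. Syce1 (1428685_at) read 1178 in the sample labelled Ring1B KO and 141 in its control, 8.33-fold higher. In the double KO-labelled sample it read 262 and in its control 1346, 5.13-fold lower. All 4 signals of Syce1 were above the floor, so these folds were measured on both sides. Tex12 (1421183_at), whose product forms a complex with that of Syce2, read 120.4 in the sample labelled Ring1B KO and 13.5 in its control, and 15.8 in the double KO-labelled sample and 130 in its control. It was at least 3.29-fold higher in the Ring1B comparison and at least 3.55-fold lower in the double KO comparison. Syce2 (1429270_a_at) was bright and nearly level. It read 3170 in the Ring1B KO-labelled sample and 3369 in its control, and 4160 in the double KO-labelled sample and 4348 in its control. Its log2 difference was -0.09 in the Ring1B comparison and -0.06 in the double KO comparison, and its percentile ran from 97.0 to 98.1 over the 4 arrays.

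Tex11 (1419729_at), an X-linked gene whose product acts in crossover formation, read 418 in the sample labelled Ring1B KO and 66.9 in its control. It read 54.5 in the double KO-labelled sample and 404 in its control. The high arrays were thus close to each other, as were the low arrays, with a 6.25-fold higher signal in the Ring1B comparison and a 7.41-fold lower signal in the double KO comparison. Hormad1 (1450292_a_at), which encodes an axis protein found on chromosomes that have not synapsed, was dim. It read 111 in the sample labelled Ring1B KO and 74.0 in its control, and 45.6 in the double KO-labelled sample and 51.8 in its control. Its log2 difference was 0.58 in the Ring1B comparison and -0.18 in the double KO comparison.

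The meiotic cohesin genes differed from each other. Smc1b (1449253_at) replaces the mitotic subunit Smc1a in meiotic cohesin. It read 70.8 in the sample labelled Ring1B KO and 79.6 in its control, a log2 difference of -0.17. In the double KO-labelled sample it read 96.2 and in its control 262, which is 2.72-fold lower. The sample labelled double KO control alone stood apart for Smc1b. Stag3 (1460229_at), the meiosis-specific form of the cohesin subunits Stag1 and Stag2, read 197 in the sample labelled Ring1B KO and 306 in its control, a log2 difference of -0.64. It read 485 in the double KO-labelled sample and 431 in its control, a log2 difference of 0.17. Stag3 was thus the only gene of the 10 with a higher signal in the double KO-labelled sample than in its control.

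In the Ring1B comparison, 5 of the 10 genes reached a 2-fold higher signal in the KO-labelled sample and 0 a 2-fold lower one. Among all 12366 named genes with a signal over the floor in at least 1 sample of the pair, 3.57% were at least 2-fold higher and 2.6% lower. The median log2 difference was 0.91 over the 10 genes and -0.0169 over all genes. Because the 10 genes were chosen with earlier results of these data known, their counts beside the shares of all genes are a description only. The same holds for the other comparisons. For 3 of the 5 higher genes, Sycp1, Sycp2 and Tex12, the fold is a bound. With the floor at the 60th percentile only Syce1 and Tex11 remained at least 2-fold higher and the median was 0.09.

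In the double KO comparison, 6 of the 10 genes were at least 2-fold lower in the double KO-labelled sample and 0 were at least 2-fold higher. Among all 12384 genes tested, 10% were at least 2-fold lower and 3% higher. The median log2 difference was -1.64 over the 10 genes and -0.05 over all genes. Sycp2 and Tex12 had a bound in place of a fold. All 5 genes that were higher in the sample labelled Ring1B KO were among the 6 lower ones in the double KO-labelled sample, and the other one was Smc1b. These comparisons share no array. How many of all genes showed both differences was not counted. Among the endoderm markers, Gata6, Gata4, Dab2 and Col4a1 showed both, while Lama1 was at least 2-fold higher in both comparisons. Sox17, Sox7, Foxa2 and Pth1r were higher in the Ring1B comparison but under 2-fold apart in the double KO comparison. The germ cell markers Ddx4, Dazl, Sohlh2, Stra8, Piwil2 and Mael also showed both, as did Clu and Pdgfra, and Prdm1 ran the other way in each. These markers were named after their values were seen.

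**Figure D3:**
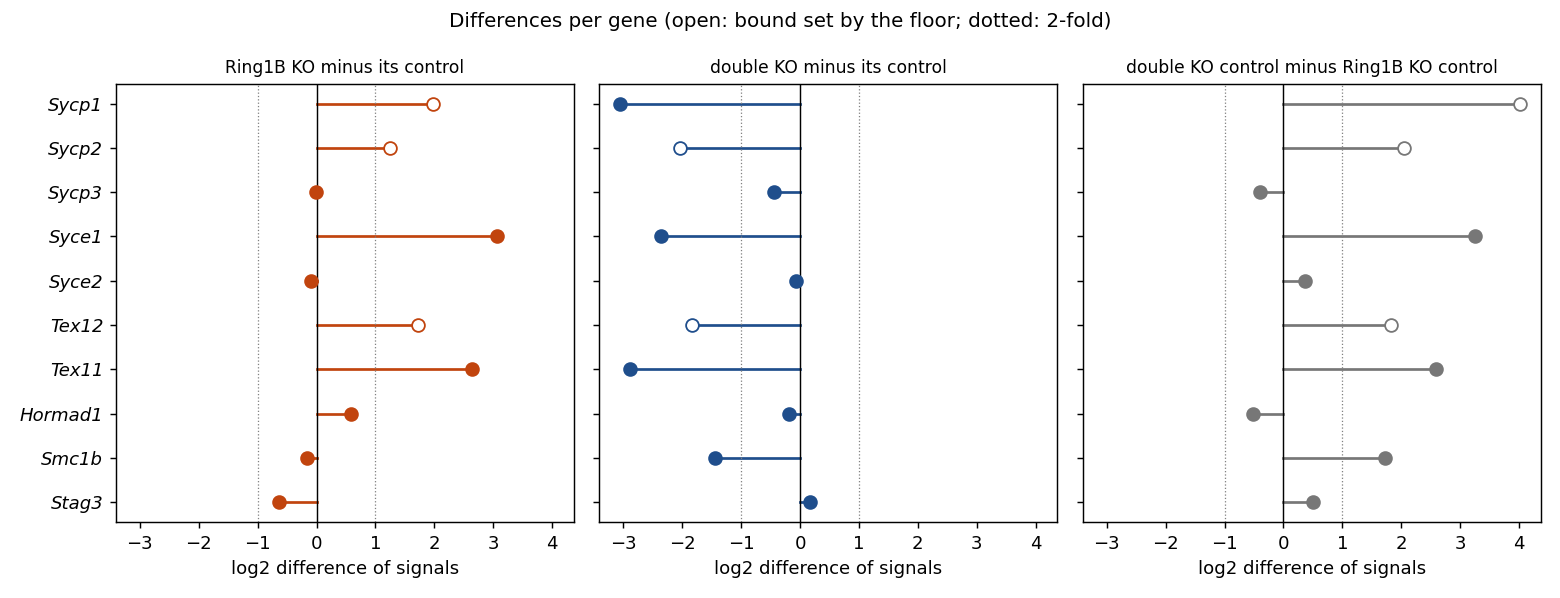
Log2 difference of each gene in the Ring1B comparison (left), the double KO comparison (middle) and between the samples labelled as controls (right), with open points where the floor sets a bound and dotted lines at 2-fold. Syce1 reaches 3.06 on the left, Sycp1 reaches -3.05 in the middle, and 6 genes pass 2-fold on the right.

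The samples labelled as wild-type controls also differed from each other in these genes. Comparing the double KO control sample with the sample labelled Ring1B KO control, 6 of the 10 genes were at least 2-fold higher and 0 lower, compared with 12.2% higher and 8.19% lower among all 12692 genes tested. Sycp1 was at least 16.1-fold higher, Syce1 9.52-fold, Tex11 6.03-fold, Sycp2 at least 4.11-fold, Tex12 at least 3.55-fold and Smc1b 3.29-fold. The median over the 10 genes was 1.77, and over all genes 0.13. With values as deposited, 4 genes were higher and 4 lower, compared with 0.701% higher and 65.2% lower among all genes, and the directions of Syce2 and Stag3 turned. The control comparison shares an array with each of the knockout comparisons, so its values are not separate evidence on either.

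Each KO-labelled sample was also set against the control of the other pair. The sample labelled Ring1B KO had 1 of the 10 genes at least 2-fold higher (Hormad1, 2.14-fold) and 3 lower (Sycp1 4.08-fold, Smc1b 3.69-fold and Stag3 2.19-fold) relative to the double KO control sample, compared with 8.04% higher and 11.2% lower among all genes. Tex11, Tex12, Syce1 and Sycp2, which were higher relative to the own control, differed by 0.0510, -0.11, -0.19 and -0.80 here. Relative to the sample labelled Ring1B KO control, 0 of 8 genes above the floor reached 2-fold in either direction in the double KO-labelled sample, compared with 7.83% higher and 9.92% lower among all genes. Sycp1 was higher by at least 0.96 and Syce1 by 0.89, and Sycp2 and Tex12 were under the floor on both arrays. The high signals of Syce1, Tex11 and Tex12 in the samples labelled Ring1B KO and double KO control were thus under 2-fold apart, as were their low signals on the other arrays where above the floor. Whether pair, label or cell state goes with these levels cannot be told apart with 1 array a group.

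Other genes of meiotic chromosome structure were examined as a list that includes genes with mitotic roles (Plk1, Bub1, Skp1, Sun1). Of 14 genes above the floor in the Ring1B comparison, 1 was at least 2-fold higher and 0 lower, with a median of 0.21. It was Rec114, needed for meiotic DNA breaks, at 2.30-fold. Of all genes, 3.57% were higher and 2.6% lower in that comparison. In the double KO comparison 4 of 17 were at least 2-fold lower and 0 higher, with a median of -0.28, compared with the 10% of all genes lower there. Syce3, a further central element gene, was 4.43-fold lower (87.1 in the double KO-labelled sample and 386 in its control), and Mei1, which acts in meiotic break formation, was at least 3.76-fold lower. The telomere attachment gene Majin and the axis gene Hormad2 were also lower, by at least 2.34-fold and at least 2.29-fold. Both folds are bounds set by the floor, with dim signals of 85.5 and 83.9 in the double KO control sample. Majin and Hormad2 are named after their values were seen. Spo11 and Meikin were under the floor on all 4 arrays. Between the control arrays, 6 of 17 genes of this list were at least 2-fold higher in the double KO control sample and 0 lower. Among all genes 12.2% were higher and 8.19% lower there. Syce3 was 7.87-fold and Rec114 3.98-fold higher. Syce3 read 92.6 in the Ring1B KO-labelled sample and 49.0 in its control, so the double KO control sample alone stood apart for Syce3.

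Meiotic recombination genes, a list that includes genes with roles outside meiosis (among them Brca2, Hells, Spidr and Helb), showed no common direction. Of all genes, 3.57% were higher and 2.6% lower in the Ring1B comparison, and 3% higher and 10% lower in the double KO comparison. In the Ring1B comparison 1 of 15 recombination genes was at least 2-fold higher and 2 were lower, with a median of -0.25. Tex15, which acts in repair of meiotic breaks, was 2.22-fold higher, Meiob, which acts in meiotic strand exchange, was at least 2.47-fold lower, and Spidr, a repair scaffold gene, 2.11-fold lower. In the double KO comparison 1 of 14 was higher and 1 lower, with a median of 0.11. Tex15 was 3.98-fold lower and Helb, a DNA helicase gene, 3.83-fold higher. Dmc1, the meiotic recombinase, read 426 on both arrays of the Ring1B pair, and 264 in the double KO-labelled sample and 497 in its control. Msh4 and Prdm9 were under the floor on all 4 arrays.

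Among regulators of meiotic entry, 4 of 7 were at least 2-fold higher and 0 lower in the Ring1B comparison, with a median of 1.37. In the double KO comparison 4 of 6 were lower and 0 higher, with a median of -1.23. Of all genes, 3.57% were higher and 2.6% lower in the Ring1B comparison, and 10% lower and 3% higher in the double KO comparison. Dazl, an RNA-binding protein of germ cells, was 4.55-fold higher in the sample labelled Ring1B KO (516, and 113 in its control) and 3.58-fold lower in the double KO-labelled sample (112, and 402 in its control). Sohlh2, a germ cell transcription factor, was 3.63-fold higher in the Ring1B comparison and 2.15-fold lower in the double KO comparison. Stra8, which is induced by retinoic acid at the start of meiosis, read 80.1 in the double KO-labelled sample and 494 in its control, 6.17-fold lower. In the Ring1B comparison Stra8 was 3.14-fold higher. Meioc, needed to complete meiotic prophase, also passed 2-fold in both comparisons. Sohlh1 was under the floor on all 4 arrays. Between the control arrays, 3 of 7 entry regulators were at least 2-fold higher in the double KO control sample and 2 lower. Among all genes 12.2% were higher and 8.19% lower there.

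The mitotic counterparts of the cohesin genes were examined as well. Of 14 mitotic cohesin and loader genes, 0 reached 2-fold in either comparison, which is near the shares of all genes in the Ring1B comparison and compares with 10% lower and 3% higher in the double KO comparison. They had a median of -0.21 in the Ring1B comparison and 0.17 in the double KO comparison. Their differences ran from -0.63 to 0.23 in the Ring1B comparison and from -0.41 to 1.00 in the double KO comparison. Smc1a, the mitotic counterpart of Smc1b, read 1339 in the Ring1B KO-labelled sample and 1510 in its control, and 2715 in the double KO-labelled sample and 2299 in its control. Stag2, a mitotic counterpart of Stag3, differed by 0.996 in the double KO comparison, just short of 2-fold. Between the control arrays, where 8.19% of all genes were lower and 12.2% higher, 2 of the 14 were lower and 1 higher in the double KO control sample. They were Rad21, the mitotic kleisin subunit, 4.43-fold lower, Esco2, a cohesin acetyltransferase gene, 3.63-fold lower, and Cdca5, the sororin gene, 2.02-fold higher.

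Subunits of the PRC1 variant with Pcgf6 and the DNA methylation machinery were above the floor on most arrays. In the Ring1B comparison 0 of 21 genes reached 2-fold, with a median of 0.10. In the double KO comparison 1 of 20 was at least 2-fold higher and 2 lower, with a median of 0.17. These counts were near the shares of all genes. Those shares were 3.57% higher and 2.6% lower in the Ring1B comparison, and 3% higher and 10% lower in the double KO comparison. Dnmt3a, a de novo DNA methyltransferase gene, was 3.63-fold higher (2030 in the double KO-labelled sample and 559 in its control). E2f6 was 2.18-fold lower (444, and 968 in its control) and Yaf2, a gene for a PRC1 subunit, was 2.22-fold lower. In the Ring1B comparison E2f6 differed by 0.84. Pcgf6, L3mbtl2 and Mga differed by -0.07, 0.23 and -0.57 in the Ring1B comparison and by 0.18, -0.00552 and 0.78 in the double KO comparison.

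**Figure D4:**
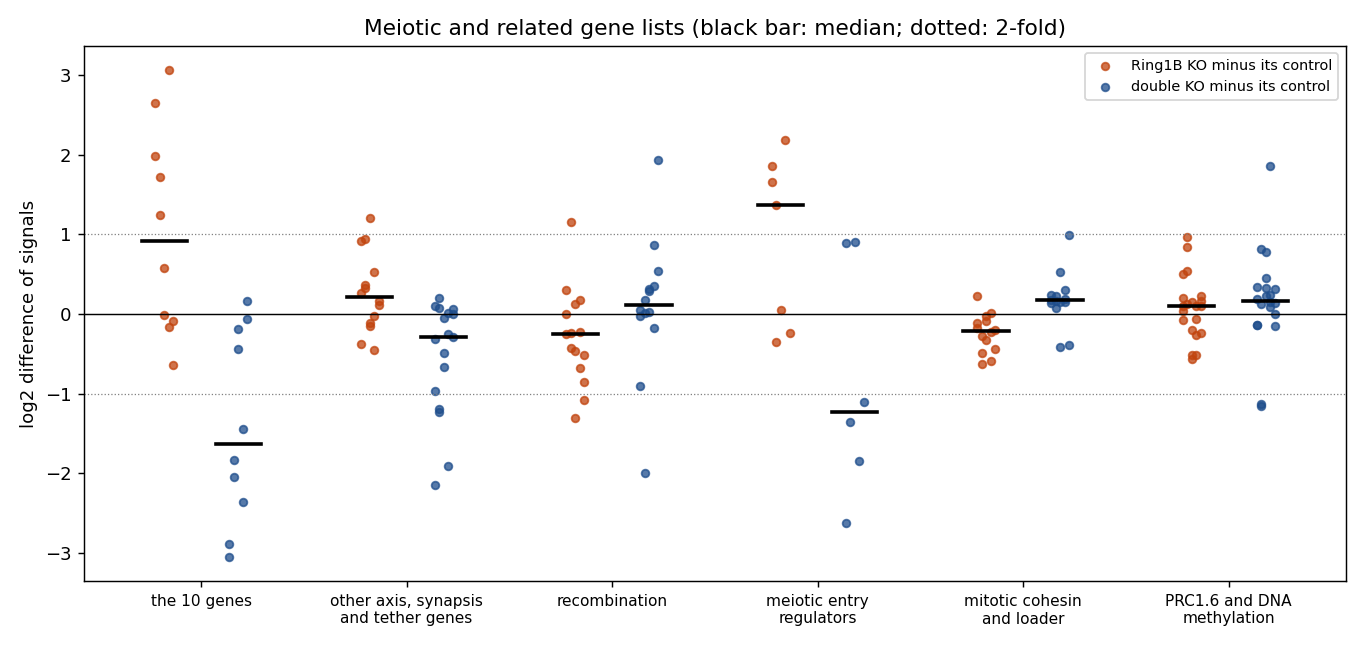
Log2 differences of the 10 genes and of related gene lists in the Ring1B comparison (orange) and the double KO comparison (blue), 1 point a gene above the floor on at least 1 array of the pair, with black bars at the medians and dotted lines at 2-fold. The medians of the 10 genes (0.91 and -1.64) and of the meiotic entry regulators (1.37 and -1.23) stand farthest from 0 among the lists plotted, and mitotic cohesin genes lie within 2-fold.

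Markers of other cell types also differed within both pairs, and their part in the differences of the meiotic genes was not tested. Their median log2 difference in the Ring1B comparison was 1.54 for germ cell, 2.03 for endoderm, 0.53 for fibroblast and 0.74 for somatic gonad markers. For the double KO comparison the medians were -1.10, -0.90, -1.73 and -1.32 for the same lists. Summed signals count a gene under the floor at the floor. The individual markers given here were named after their values were seen.

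Germ cell markers, of which Dazl, Sohlh1, Sohlh2 and Stra8 are also in the list of meiotic entry regulators, were at least 2-fold higher for 6 of 10 in the Ring1B comparison and lower for 3 (Prdm1, Tfap2c and Dppa3). Of 11 in the double KO comparison, 6 were lower and 1, Prdm1, was higher. Their summed signal over 12 genes was 7910 in the Ring1B KO-labelled sample and 5559 in its control, and 4091 in the double KO-labelled sample and 8448 in its control.

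Endoderm markers were at least 2-fold higher for 9 of 11 in the Ring1B comparison. Of 10 in the double KO comparison, 4 were lower (Gata6, Gata4, Dab2 and Col4a1) and 1, Lama1, was higher. Their sum over 12 genes was 17849 in the Ring1B KO-labelled sample and 5742 in its control, and 2570 in the double KO-labelled sample and 5425 in its control. Afp, a product of the visceral endoderm, was under the floor on all 4 arrays. The shares among all genes were 3.57% higher and 2.6% lower in the Ring1B comparison, and 3% higher and 10% lower in the double KO comparison.

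Fibroblast markers, which a feeder layer would carry, were higher for 1 of 15 in the Ring1B comparison (Pdgfra) and lower for 12 of 16 in the double KO comparison. Their sum over 16 genes was 24526 in the Ring1B KO-labelled sample and 18208 in its control, and 9115 in the double KO-labelled sample and 12292 in its control. Fn1 was the largest part of the sums of the double KO pair. It ran opposite to the 12 lower markers, with 6222 in the double KO-labelled sample and 5108 in its control. Somatic gonad markers were higher for 2 of 6 (Gata4, which the endoderm list also holds, and Clu) and lower for 1 (Inha) in the Ring1B comparison. Of 6 in the double KO comparison, 4 were lower (Gata4, Clu, Foxl2 and Gatm). Their sum over 9 genes was 1513 in the Ring1B KO-labelled sample and 680.1 in its control, and 848 in the double KO-labelled sample and 2354 in its control. Clu alone read 551 in the double KO-labelled sample and 1827 in its control. The Sertoli cell hormone gene Amh and the gonadal regulator Nr5a1 were under the floor on all 4 arrays.

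ES cell markers were under 2-fold apart for 10 of 10 in the Ring1B comparison, with a sum of 49425 in the Ring1B KO-labelled sample and 58896 in its control. Of 10 in the double KO comparison, 1, Tdgf1, was at least 2-fold higher, with a sum of 63283 in the double KO-labelled sample and 47188 in its control. These counts were near the shares of all genes, 3.57% higher and 2.6% lower in the Ring1B comparison. In the double KO comparison those shares were 3% higher and 10% lower.

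The genes whose signals over the 4 arrays were most like the median profile of the 10 genes were Hoxc10, Eomes, Cgas, Tbx4 and Krt8. Likeness was the Euclidean distance between log2 signals centred on each gene's mean over the 4 arrays. Ranked were the 12050 genes above the floor on at least 2 arrays, less the 10 genes themselves and genes with clone-type symbols. The distances of the 5 nearest ran from 0.10 to 0.21. Hoxc10 read 77.3 in the sample labelled Ring1B KO and 182 in the double KO control sample, and was under the floor on the other arrays. Eomes, a T-box transcription factor gene, read 164 in the Ring1B KO-labelled sample and 85.3 in its control, and 87.5 in the double KO-labelled sample and 453 in its control. Within the 10 genes, Sycp2 lay closest to their median profile, at 0.38, and Hormad1 farthest, at 2.24. With 4 arrays such a profile holds few values, and the ranking is a description only.

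Genes next to the 10 on the chromosome were examined after the values of the 10 had been seen, using the order of RefSeq protein-coding genes on assembly GRCm38.p6. Of 20 such neighbours, 18 were named on the array. In the Ring1B comparison 1 of 16 above the floor was at least 2-fold higher and 0 lower, with a median of 0.0122. Of 13 in the double KO comparison, 1 was higher and 1 lower, with a median of 0.0235. These counts were near the shares of all genes. Those shares were 3.57% higher and 2.6% lower in the Ring1B comparison, and 3% higher and 10% lower in the double KO comparison. The neighbour that was higher in the double KO comparison was Slc7a3, an amino acid transporter gene beside Tex11. It read 3419 in the double KO-labelled sample and 1085 in its control, opposite in direction to Tex11. Ctss, a protease gene beside Hormad1, differed by 1.05 in the Ring1B comparison and by -1.06, a bound, in the double KO comparison. Chpt1, which overlaps Sycp3, and Gcdh, which overlaps Syce2, were under 2-fold apart in both comparisons.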

How the data were processed

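RNA of 4 mouse ES cell samples was hybridised to Affymetrix arrays. Per the labels' protocols, a Trizol extraction was followed by column purification and biotin labelling. The deposited values are linear signal intensities. The submitters' processing notes name MAS5 for them, and neither its version nor detection calls are given in the sources used here. Arrays were multiplied to a common 2%-trimmed mean, floored at the 40th percentile of signals of probe sets with 1 gene symbol, and log2-transformed (Python 3.11.15, numpy 2.4.6, pandas 2.3.3). The 64 control probe sets were left out of naming. Of the remainder, 34945 had 1 symbol and 34754 of these matched RefSeq by Entrez identifier, which changed 0 symbols. A gene with several probe sets was represented by that of highest mean log2 signal. Each of the 10 genes has 1. Differences of at least 2-fold were counted. Where 1 of the compared signals did not exceed the floor, folds are given as at least that size. The labels gave 1 array a group, so no test was possible. Steps were tested on simulated data.

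Named genes were the 10 members, up to 2 per direction of each other list, Ring1, Rnf2, Pcgf6, E2f6, Mga and L3mbtl2, and the 5 nearest profiles. Further list genes and neighbouring genes were named after their values were seen. The members and lists were chosen with earlier results of these data known. Alternatives were the values as deposited, quantile normalization, floors at the 20th and 60th percentiles, the mean over probe sets, leaving out probe sets whose identifiers end in _s_at or _x_at, and the control array of the other pair.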

Additional observations from a re-analysis of the deposited data

Results flagged for a closer look

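For 5 genes the array labelled KO differed from its own control by at least 2-fold in opposite directions in the 2 pairs of arrays. The log2 difference of the Ring1B pair minus that of the double KO pair was 5.53 for Tex11, 5.42 for Syce1, 5.03 for Sycp1, 3.55 for Tex12 and 3.28 for Sycp2. For Sycp1, Sycp2 and Tex12 the floor makes this a lower bound. How many of all genes differed in opposite directions in this way was not counted. The difference between the pairs was not tested, since each pair holds 1 array of either label, and it rests on the labels of the double KO pair.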

How the results depend on the processing

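No paired analysis was possible because each group holds 1 array, and none had a replicate to leave out. Under quantile normalization, the counts and medians of the 10 genes in each comparison moved by less than the limits set for a change (a factor of 1.5 for a count and the median absolute difference of all genes for a median). The mean over probe sets and leaving out _s_at and _x_at probe sets could not change these values. Each of the 10 genes has 1 probe set, and none of these identifiers ends in _s_at or _x_at.

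The largest changes came with the control array of the other pair. Against it the Ring1B comparison had 1 gene higher and 3 lower, with a median of -0.32, in which Sycp1 (-2.03), Sycp2 (-0.80), Syce1 (-0.19), Tex12 (-0.11) and Sycp3 (0.39, under 2-fold in both settings) turned direction. The double KO comparison then had 0 genes lower and a median of 0.29, in which Sycp1 (0.96), Syce1 (0.89), Smc1b (0.27) and Syce2 (0.30, under 2-fold in both settings) turned. A floor at the 60th percentile gave a Ring1B median of 0.0896 with 2 genes higher, a double KO median of -0.44 and one between the control arrays of 0.49. The Ring1B median was 1.57 under a 20th-percentile floor. With values as deposited the median was 1.32 in the Ring1B comparison, -1.22 in the double KO comparison and 0.51 between the control arrays, where 4 genes were lower, with Syce2 (-1.27) and Stag3 (-1.15) turned. That setting leaves the pairs on different scales: the median over all genes above the floor on both arrays was -1.44 between the control arrays and -0.12 in the double KO comparison, compared with 0.14 and -0.0226 after scaling. Of the single-gene values, 165 kept their sign and side of 2-fold, among them those of the settings that could not change them. Another 9 dropped under 2-fold, 5 newly reached it and 12 turned sign. The other one that turned was Hormad1 in the double KO comparison under quantile normalization (0.0574). Causes other than the scale of the deposited values were not tested. Dim signals limit Sycp1, Sycp2, Tex12, Tex11, Hormad1 and Smc1b, since each lay within 2-fold of the floor, or under it, on at least 1 array.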
